A study of Mus musculus with 6 samples.

Results

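Transcripts of 50 genes of autophagy and the lysosome were compared between cultured mouse group 2 innate lymphoid cells (ILC2s) exposed to Yoda1 and cells exposed to its solvent. The genes came from a fixed list of cargo receptors, ATG8 proteins, core autophagy genes, lysosomal proteins and proton pump subunits. All 50 had a column among the 17546 genes of the deposited table, and all 50 passed the filter on low counts that left 13325 genes for the test. Bulk RNA-seq was made from ILC2s, innate lymphocytes that lack antigen receptors and secrete type 2 cytokines. BALB/c mice gave the lung cells, which were sorted after 3 injections of 1 µg IL-33 each, an alarmin that activates these cells, and were kept at 37°C in IL-2 (10 ng/mL) and IL-7 (10 ng/mL). For 24 h the control cells received DMSO and the treated cells received 10 µM Yoda1, an opener of the mechanosensitive cation channel Piezo1. Each group held 3 libraries, labelled DMSO 1 to 3 and Yoda1 4 to 6. The control is called PBS in the series' design text and in the deposited table, and DMSO in the sample labels, which were followed. No source used here gives the age, sex or number of the mice, or tells if libraries of 1 group had separate mice or cultures as their source, so p-values measure only the spread between these libraries.

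Macroautophagy encloses cytoplasm in a double membrane, the autophagosome, which then fuses with the lysosome. ATG8 proteins, the LC3 and GABARAP subfamilies, are coupled to lipid on the growing membrane, and cargo receptors such as p62 bind both an ATG8 protein and ubiquitinated cargo. The lysosome digests what arrives, with hydrolases that need the acid made by a proton-pumping ATPase. TFEB and TFE3 are transcription factors that switch on many genes of the lysosome and of autophagy through a short motif around CACGTG.

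Totals ran from 14214047 to 31627493 counts per library after rounding. Levels are given as CPM, the counts of a gene scaled by library total and TMM factor. Each log2 change is Yoda1 relative to DMSO, with its standard error (SE). A gene was called when its Benjamini-Hochberg adjusted p over all 13325 genes was under 0.05. Of the 13 ILC2 marker genes examined, Gata3 lay between 766 and 1042 CPM of all counts and Il1rl1, the IL-33 receptor, between 545 and 706, whereas Thy1 stayed between 0.115 and 2.89. By edgeR 1 of the 13 was called higher and 2 lower, where 0.57% and 0.923% of all tested genes were. Icos was at 850 to 875 CPM with DMSO and 434 to 509 with Yoda1, Il2ra at 1146 to 1176 and 682 to 783, and Arg1 at 209.6 to 272 and 437 to 476. Macrophages are rich in lysosomes, and 7 of 12 macrophage markers were analysed here. Their summed level was 11.9 to 16.5 CPM of all counts with DMSO and 23.9 to 27.3 with Yoda1. Of these markers, 0 of the 3 that could be tested were called by edgeR, where 1.49% of all tested genes were. Lyz2, which encodes lysozyme, was at 4.94, 1.30 and 1.76 CPM with DMSO and 6.38, 9.93 and 10.99 CPM with Yoda1, and Cd68 at 6.44 to 10.2 and 8.24 to 13.9 CPM. Csf1r, the receptor that macrophages need to survive, was at most 0.333 CPM in any library, and Adgre1, which encodes F4/80, was at 0 in the 3 Yoda1 libraries, where 3 counts would have been 0.173 to 0.195 CPM. The 6 epithelial markers analysed here summed to 91.6 to 415 CPM with DMSO and 55.2 to 76.1 with Yoda1. Epcam made up 48.8 to 70.1 CPM of this in every library. The club cell gene Scgb1a1 was at 302 and 293 CPM in DMSO 2 and DMSO 3 and at 0 in DMSO 1. Sftpa1, Krt8 and Krt18 were also lower in DMSO 1 than in DMSO 2 and DMSO 3. Sftpc went the other way, at 15.3 CPM in DMSO 1, 0.569 in DMSO 2 and 0 in DMSO 3. Because of Scgb1a1, the members' median is also given with DMSO 1 as the lone control. The part of these cells in the results was not tested. Bulk RNA also cannot tell fewer cells of a type from less RNA per cell.

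Sqstm1 and Gabarapl1 were called higher with Yoda1 by edgeR's quasi-likelihood test, and no member was called lower. That is 2 of 50 members called higher, where 0.57% of all tested genes were, and 0 of 50 called lower, where 0.923% were. In both directions together, 1.49% of all tested genes were called. At an unadjusted p under 0.05 there were 11 members higher and 2 lower, against 7.39% and 7.11% of all tested genes. By DESeq2, 8 members were called higher and 1 lower (3.03% and 3.53% of the genes to which it gave an adjusted p), and limma voom called 3 and 0 (0.908% and 1.34%). The log2 change was positive for 39 of 50 members, against 51.0% of all tested genes, and its median was 0.22 against 0.01 over all tested genes. In 18 members every Yoda1 library was above every DMSO library, and in 2 every Yoda1 library was below; over all tested genes these shares were 10.6% and 12.0%, or 22.6% together. With DMSO 1 as the lone control the members' median was 0.24 and that of all tested genes 0.02; edgeR called 0 of all 14975 genes in that fit, so its calls say nothing about the members.

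**Figure D1:**
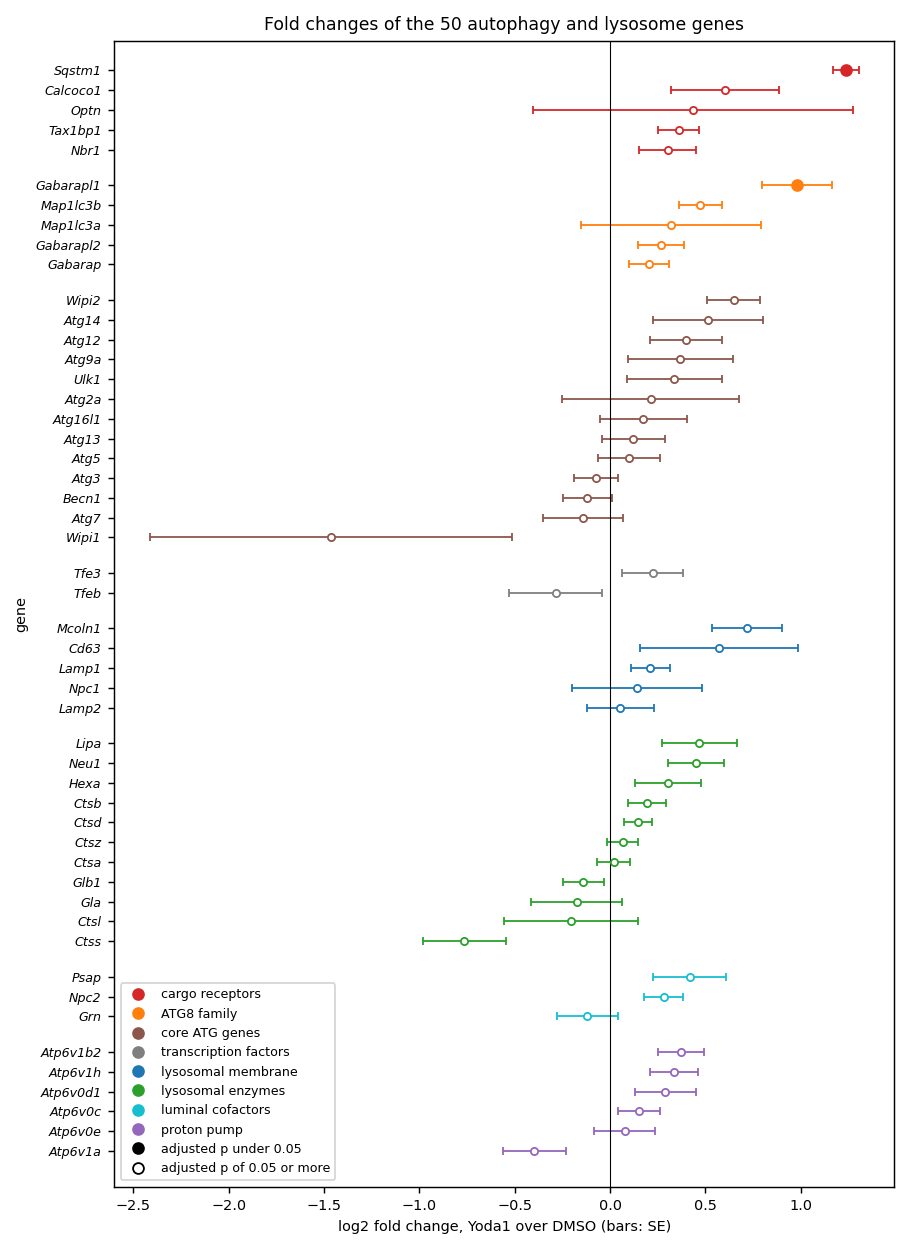
Log2 fold change of Yoda1 over DMSO for each of the 50 genes (horizontal axis, bars 1 SE, n = 3 libraries per group), ordered by role from cargo receptors at the top to the proton pump at the bottom. Filled points are the 2 members called by edgeR, Sqstm1 at 1.24 and Gabarapl1 at 0.98; the 5 cargo receptors and the 5 ATG8 genes all lie right of 0, while Wipi1, Ctss and Atp6v1a lie left of it.

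The 50 genes summed to 7527, 7358 and 7423 CPM in DMSO 1, 2 and 3, and to 9245, 9432 and 9598 CPM in Yoda1 4, 5 and 6. Sqstm1 alone made up 10.5% of the sum with DMSO and 19.5% with Yoda1. Without Sqstm1 the sums were 6730, 6559 and 6678 CPM with DMSO and 7416, 7553 and 7782 CPM with Yoda1, a ratio of means of 1.14. The groups did not overlap in either sum.

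Sqstm1 encodes p62, a cargo receptor that links ubiquitinated proteins to the autophagosome and also takes part in NRF2 and NF-kB signalling. DMSO 1, 2 and 3 had 798, 799 and 744 CPM, whereas Yoda1 4, 5 and 6 had 1829, 1879 and 1816 CPM. The libraries of a group lay close together, and the lowest Yoda1 library was far above the highest DMSO library. The log2 change was 1.24 (SE 0.07), a 2.36-fold rise (edgeR adjusted p = 0.000183). Per kilobase of exon, the level was 232 CPM with DMSO and 549 CPM with Yoda1, which placed Sqstm1 behind only Ctsz and Ctsd among the 50 members with DMSO, and ahead of all of them with Yoda1. The call held with each library left out in turn (adjusted p from 0.000516 to 0.00717), but not when libraries sharing a label number were summed (adjusted p = 0.0539), a fit in which 1 gene of all was called. The fold stayed between 1.18 and 1.31 on the log2 scale in all 15 alternatives.

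Sqstm1 lies on chromosome 11 at 50199366 to 50210827, minus strand (GRCm38, GENCODE M21). Its exons overlap those of Mrnip on the other strand over 17.3% of their length. No source used here says whether the counting used strand, but Mrnip itself was at 3.61 to 20.9 CPM of all counts, far under Sqstm1 in every library. The bases just before the start sites of the 2 called genes, and of Lamp1 for comparison, are shown because CACGTG is the core of the motif that TFEB and TFE3 bind (RefSeq, GRCm38.p6, 5′ to 3′; capitals mark CACGTG).
Sqstm1, chr11:50210828-50211070, minus strand: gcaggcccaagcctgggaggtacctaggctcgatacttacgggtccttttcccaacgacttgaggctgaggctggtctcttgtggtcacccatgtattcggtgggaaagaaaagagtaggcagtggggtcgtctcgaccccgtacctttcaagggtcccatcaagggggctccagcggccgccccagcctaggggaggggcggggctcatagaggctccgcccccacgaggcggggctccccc
Gabarapl1, chr6:129532942-129533159, plus strand: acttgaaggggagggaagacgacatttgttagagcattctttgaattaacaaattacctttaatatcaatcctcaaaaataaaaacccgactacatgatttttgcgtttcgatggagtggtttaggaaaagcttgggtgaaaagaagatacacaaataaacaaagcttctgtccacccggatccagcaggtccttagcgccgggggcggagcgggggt
Lamp1, chr8:13158911-13159160, plus strand: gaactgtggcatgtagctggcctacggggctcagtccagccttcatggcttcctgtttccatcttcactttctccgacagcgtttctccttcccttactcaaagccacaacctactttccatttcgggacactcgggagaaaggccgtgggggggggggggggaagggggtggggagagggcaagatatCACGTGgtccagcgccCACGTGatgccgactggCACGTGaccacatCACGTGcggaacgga

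The Lamp1 stretch holds CACGTG 4 times, and the Sqstm1 and Gabarapl1 stretches do not hold it. RefSeq windows of 250 bases before a start site were found for 42 of the 50 members, 51 windows in all. CACGTG, which reads the same on both strands, was in 11 of these windows (21.6%), 1 for each of Atg3, Atg5, Atg7, Atp6v1a, Ctsa, Ctsd, Ctsl, Gla, Glb1, Lamp1 and Mcoln1, against 6.02% of the 32851 windows of all genes. None of these 11 genes was called by the main edgeR fit. Mcoln1 was called higher by DESeq2 and by edgeR with the filter of 10 CPM in 3 libraries. At an unadjusted p under 0.05, Mcoln1 was higher and Atp6v1a lower. TGACNNNGC, the core letters that NRF2 binds, was searched on both strands and was in 7 of the 51 windows (13.7%), against 10.2% of all, and in neither Sqstm1 nor Gabarapl1. A match is only a run of letters, and an absent match says nothing about sequence outside the window.

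The other 4 cargo receptors had positive changes that did not pass in edgeR. The signs were the same with RLE and upper-quartile factors, but 1 of the 5 was not positive without DMSO 2 or with DMSO 1 as the lone control. Tax1bp1, a receptor for ubiquitinated cargo, was at 236, 291 and 255 CPM with DMSO and 335, 322 and 346 CPM with Yoda1. The groups were apart, with a log2 change of 0.36 (SE 0.11). DESeq2 called Tax1bp1 higher and edgeR did not (edgeR adjusted p = 0.152). Nbr1, a receptor related to p62, was at 68.4, 72.6 and 90.3 CPM against 89.1, 103 and 92.4 CPM, and DMSO 3 lay within the Yoda1 range. Calcoco1 was at 14.4 ± 5.09 and 21.7 ± 2.23 CPM (SD, n = 3), with DMSO 3 just under the lowest Yoda1 library. Optn, which encodes optineurin, stayed between 0.379 and 6.40 CPM, and its groups overlapped. Within a library, where no scaling enters, there were 11.67, 11.001 and 8.24 Sqstm1 counts for each Nbr1 count with DMSO and 20.5, 18.2 and 19.6 with Yoda1. The lowest Yoda1 ratio was above the highest DMSO ratio, and the mean log2 difference was 0.93 (exact permutation test over libraries, two-sided p = 0.10, the smallest that 3 against 3 can give).

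**Figure D2:**
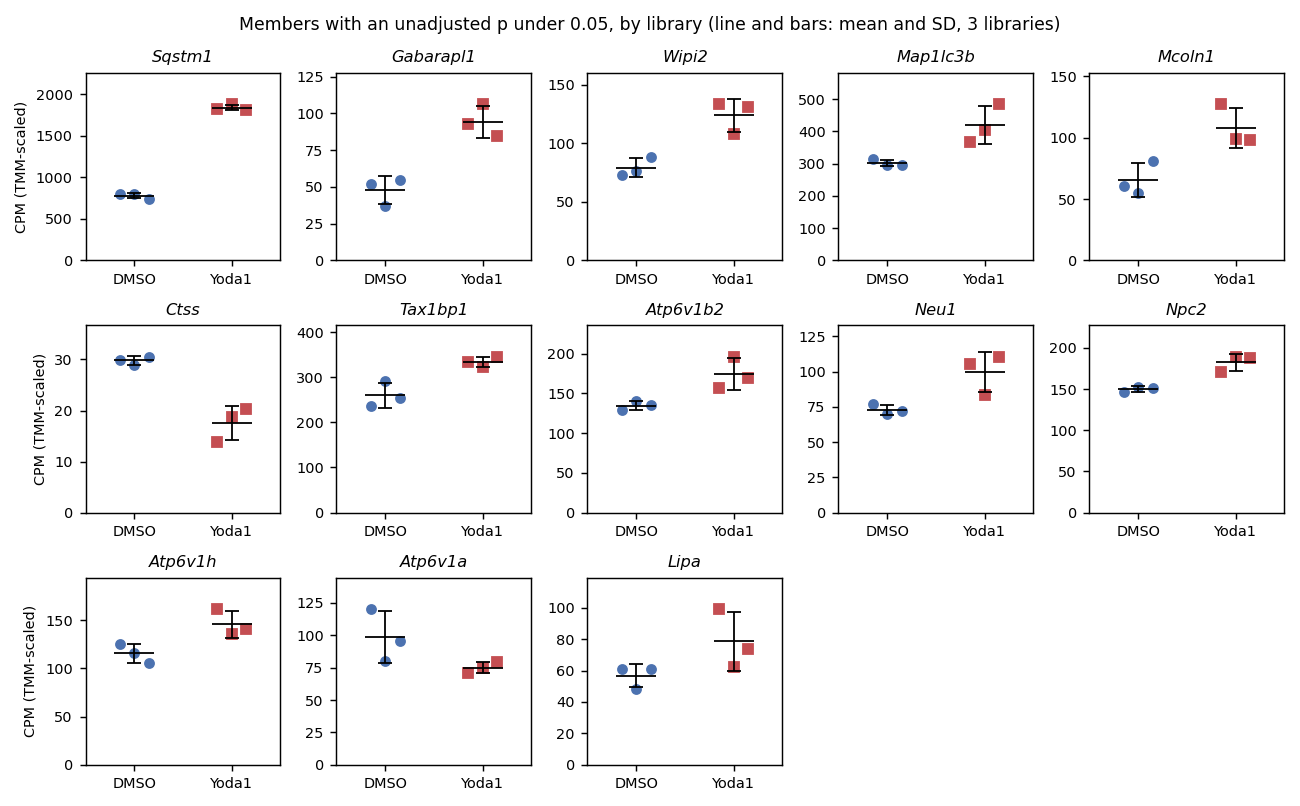
CPM (vertical axes, each from 0) in every library for the 13 members with an unadjusted p under 0.05, ordered by p; circles are the 3 DMSO and squares the 3 Yoda1 libraries, with the mean as a line and the SD as bars. Sqstm1 sits at 744 to 799 with DMSO and 1816 to 1879 with Yoda1; Ctss and Atp6v1a are the 2 panels in which the Yoda1 libraries are the lower ones.

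In the ATG8 family all 5 log2 changes were positive, from 0.21 to 0.98, and 1 passed in edgeR. All 5 were also positive with RLE and upper-quartile factors, but 4 of 5 without Yoda1 5 and with DMSO 1 as the lone control. Gabarapl1 encodes a GABARAP subfamily protein and lies on chromosome 6 at 129533160 to 129542346. It was at 52.3, 36.9 and 54.5 CPM with DMSO and 92.7, 106 and 84.4 CPM with Yoda1, with no overlap. The log2 change was 0.98 (SE 0.18, edgeR adjusted p = 0.0435). This call was close to the threshold: it was lost with any single library left out (adjusted p from 0.0557 to 0.167), with the label suffix as a term (adjusted p = 0.452), when libraries sharing a label number were summed (adjusted p = 0.233) and without a filter (adjusted p = 0.0584). With the suffix as a term only 2 genes of all were called higher and 1 lower, and with each library left out 4 to 74 were called higher and 5 to 146 lower. Its log2 change stayed between 0.79 and 1.08 in the 15 alternatives.

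Exons of Gabarapl1 overlap those of 1700101I11Rik on the other strand over 28.3% of their length, and that gene was at most 0.468 CPM of all counts in any library. Map1lc3b, which encodes LC3B, the ATG8 protein most used as an autophagosome marker, was at 313, 295 and 297 CPM with DMSO and 368, 405 and 483 CPM with Yoda1. All its Yoda1 libraries were higher, with a log2 change of 0.47 (SE 0.11). It did not pass in edgeR (adjusted p = 0.0871), whereas DESeq2 called it higher (adjusted p = 0.00279). Gabarapl2 was at 178 ± 7.38 and 214 ± 29.8 CPM (SD, n = 3), with the lowest Yoda1 library at 187.0 against 186.0 CPM in DMSO 1. Gabarap, at 184 ± 13.8 and 212 ± 11.9 CPM, had the highest level per length of the family in both groups (99.9 and 115 CPM per kb). Map1lc3a, at 2.55 to 7.16 CPM, was the lowest of the family per length and overlapped between groups. Gabarapl1 counts per Gabarap count were 0.262, 0.203 and 0.317 with DMSO and 0.453, 0.514 and 0.373 with Yoda1. These ratios did not overlap, and their mean log2 difference was 0.79 (exact permutation test, two-sided p = 0.10). The deposited values of Gabarap, Gabarapl1, Gabarapl2 and Map1lc3b were whole numbers in none of the 6 libraries. Those of Map1lc3a were whole in all 6. Values whole in no library were not particular to this family: 16 members had them, among them Sqstm1, Lamp1, Ctsd and Psap. Whether reads were split between family members was not tested.

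The 13 core ATG genes, which start, feed and close the autophagosome, had 9 positive and 4 negative changes, and a median of 0.18, which was -0.01 with 6 of 13 positive when the label suffix was a term. None was called by the main edgeR fit. DESeq2, limma voom and edgeR with the filter of 10 CPM in 3 libraries each called 1, Wipi2. At an unadjusted p under 0.05 in edgeR there was again only Wipi2. Its product binds the lipid PI3P on the forming membrane and recruits the ATG16L1 complex. It was at 72.6, 76.3 and 88.5 CPM with DMSO and 133, 108 and 131 CPM with Yoda1, with no overlap and a log2 change of 0.65 (SE 0.14, edgeR adjusted p = 0.0698). Besides Wipi2, Atg12 alone in this group had every Yoda1 library above every DMSO library, at 32.5 ± 4.04 and 42.8 ± 5.60 CPM; its protein is the ubiquitin-like tag joined to ATG5.

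The initiation genes overlapped between groups. Ulk1, the kinase that starts the process, was at 16.5 ± 2.46 and 20.9 ± 4.62 CPM, and its partner Atg13 at 61.9 ± 11.4 and 67.3 ± 1.22 CPM. Becn1, a subunit of the lipid kinase complex that makes PI3P, was at 278, 286 and 257 CPM with DMSO and 242, 219 and 296 CPM with Yoda1, so the highest and the lowest value were both from Yoda1 libraries. Its exons overlap those of Cntd1 on the other strand over 43.9% of their length. Atg14, the subunit that directs that complex to autophagy, was at 12.7 ± 3.73 and 18.0 ± 2.96 CPM. In the conjugation machinery, Atg3, the enzyme that couples ATG8 proteins to lipid and the member with the highest level per length in this group, was at 123 ± 4.44 and 116 ± 9.09 CPM. Atg5 was at 66.2 ± 9.97 and 71.0 ± 7.73 CPM, Atg7 at 92.1 ± 9.77 and 83.5 ± 22.7 CPM, and Atg16l1 at 58.5 ± 14.4 and 66.0 ± 13.6 CPM.

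The lipid scramblase gene Atg9a and the lipid transfer gene Atg2a spread widely among the Yoda1 libraries, from 24.1 to 51.6 CPM and from 11.9 to 43.0 CPM. Wipi1 had the most negative change of the 50, at -1.46 (SE 0.95), but it was between 0.179 and 3.40 CPM with as few as 3 counts in a library, its groups overlapped, and it was far from the threshold (edgeR adjusted p = 0.534).

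The genes of the transcription factors were not called. Tfeb was at 20.9, 36.2 and 29.5 CPM with DMSO and 26.1, 23.9 and 21.1 CPM with Yoda1, with every Yoda1 value inside the DMSO range. Its log2 change of -0.28 (SE 0.24) was -0.09 without DMSO 2 and 0.17 with DMSO 1 as the lone control. Tfe3 was at 42.9 ± 1.69 and 50.1 ± 5.39 CPM, with 1 Yoda1 library, at 44.2 CPM, below the highest DMSO library, at 44.8 CPM. Activity of these factors is set largely by their movement into the nucleus, which RNA levels do not report.

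Among the 5 genes of the lysosomal membrane all changes were positive (median 0.21) and none passed in the main edgeR fit or limma voom. DESeq2 called Mcoln1 higher, as did edgeR with the filter of 10 CPM in 3 libraries (adjusted p = 0.0405). Mcoln1 encodes TRPML1, a channel that releases calcium from the lysosome. It was at 60.6, 55.3 and 81.3 CPM with DMSO and 127, 99.1 and 97.8 CPM with Yoda1, without overlap, and its log2 change was 0.72 (SE 0.18, edgeR adjusted p = 0.106). Lamp1, a major glycoprotein of this membrane with the highest level per length of the 5, was at 318, 293 and 354 CPM and at 353, 390.0 and 375 CPM, so DMSO 3 lay just inside the Yoda1 range. Lamp2 was at 115 ± 14.4 and 119 ± 25.2 CPM. The tetraspanin gene Cd63 was at 5.19 to 9.18 CPM with DMSO and 6.39 to 16.2 CPM with Yoda1, and the cholesterol exporter gene Npc1 at 9.13 to 18.7 and 10.9 to 18.0 CPM. The positive sign was not steady for the weakest members: without Yoda1 4, only 3 of the 5 were positive.

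The 11 lysosomal enzymes had 7 positive and 4 negative changes, a median of 0.07, and none called by edgeR or limma voom. Ctsz and Ctsd, which encode the proteases cathepsin Z and cathepsin D, had the highest levels per length with DMSO of all 50 members, at 412 and 383 CPM per kb. Exons of Ctsd overlap those of Gm49369 on the same strand over 34.4% of their length, and how shared reads were assigned was not given. Ctsz was at 576, 597 and 607 CPM with DMSO and 582, 626 and 655 CPM with Yoda1, overlapping, with a log2 change of 0.07 (SE 0.08). Ctsd was at 906, 878 and 914 CPM against 991, 1048 and 945 CPM; the groups did not overlap, but the log2 change was 0.15 (SE 0.07, edgeR adjusted p = 0.407). Ctsb was also apart, at 362 ± 11.02 and 415 ± 41.5 CPM, while Ctsa, at 298 ± 6.48 and 302 ± 11.1 CPM, and Ctsl, at 8.65 to 21.4 CPM, overlapped.

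Ctss, the cathepsin that trims the invariant chain of MHC class II, went the other way. It was at 30.0, 28.9 and 30.6 CPM with DMSO and 13.7, 18.6 and 20.3 CPM with Yoda1, with every Yoda1 library lower. The log2 change was -0.76 (SE 0.22); edgeR did not call it (adjusted p = 0.14), whereas DESeq2 did (adjusted p = 0.026).

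Among the hydrolases that are not cathepsins, Neu1, the lysosomal sialidase, was at 76.98, 69.6 and 72.2 CPM with DMSO and 105, 83.4 and 111 CPM with Yoda1. All its Yoda1 libraries were higher, with a log2 change of 0.45 (SE 0.15) that passed in DESeq2 (adjusted p = 0.0473) and not in edgeR (adjusted p = 0.194). Lipa, the acid lipase that frees cholesterol and fatty acids from stored esters, was at 61.3, 48.6 and 60.8 CPM and at 99.4, 62.5 and 74.1 CPM, with the groups barely apart (log2 change 0.47, SE 0.20). Hexa, at 73.5 ± 3.23 and 90.8 ± 18.7 CPM, had 1 Yoda1 library below all DMSO libraries. Glb1, which encodes beta-galactosidase, was at 169 ± 4.74 and 153 ± 11.8 CPM, and Gla at 22.7 ± 4.59 and 20.1 ± 3.09 CPM; both overlapped.

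Of the 3 luminal cofactors, none passed in edgeR, DESeq2 or limma voom. Npc2, a soluble cholesterol carrier, was at 146, 153 and 152 CPM with DMSO and 171, 189 and 188 CPM with Yoda1. The libraries of a group were close and the groups apart, with a log2 change of 0.28 (SE 0.10, edgeR adjusted p = 0.249). Psap, the precursor of the saposins that help to degrade sphingolipids, depended on 1 control library. It was at 392 CPM in DMSO 1, 249.96 and 224 CPM in DMSO 2 and DMSO 3, and 396, 360.3 and 402 CPM with Yoda1, so DMSO 1 lay among the Yoda1 libraries. Its log2 change was 0.42 (SE 0.19), 0.70 without DMSO 1 and -0.03 with DMSO 1 as the lone control. DMSO 2 and DMSO 3 are also the libraries with Scgb1a1 and share a label number. Grn, which encodes progranulin, was at 109.7 ± 5.40 and 101 ± 20.3 CPM.

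The 6 proton pump genes were not called by edgeR or limma voom. Their changes were positive for 5 and negative for 1, Atp6v1a, with a median of 0.22. Atp6v1b2, which encodes a B subunit of the catalytic sector, was at 129, 140.0 and 135 CPM with DMSO and 157, 196 and 170 CPM with Yoda1. The groups were apart, with a log2 change of 0.37 (SE 0.12, edgeR adjusted p = 0.191), and DESeq2 called it higher (adjusted p = 0.043). Atp6v1h, a regulatory subunit, was at 126, 116 and 106 CPM against 162, 135 and 141 CPM, also apart (log2 change 0.34, SE 0.13). Atp6v1a, the subunit that hydrolyses ATP and that forms a ring with the B subunit, was at 120, 80.5 and 95.2 CPM with DMSO and 71.0, 74.4 and 79.4 CPM with Yoda1. All its Yoda1 libraries were lower, DMSO 2 by little, with a log2 change of -0.40 (SE 0.17, edgeR adjusted p = 0.32). In the membrane sector, Atp6v0c, the proteolipid subunit, was at 277 ± 4.51 and 308 ± 39.0 CPM, Atp6v0e at 302 ± 11.1 and 319 ± 77.7 CPM, and Atp6v0d1 at 47.1 ± 0.741 and 57.5 ± 7.61 CPM. Only Atp6v0d1 among these 3 was apart between groups.

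**Figure D3:**
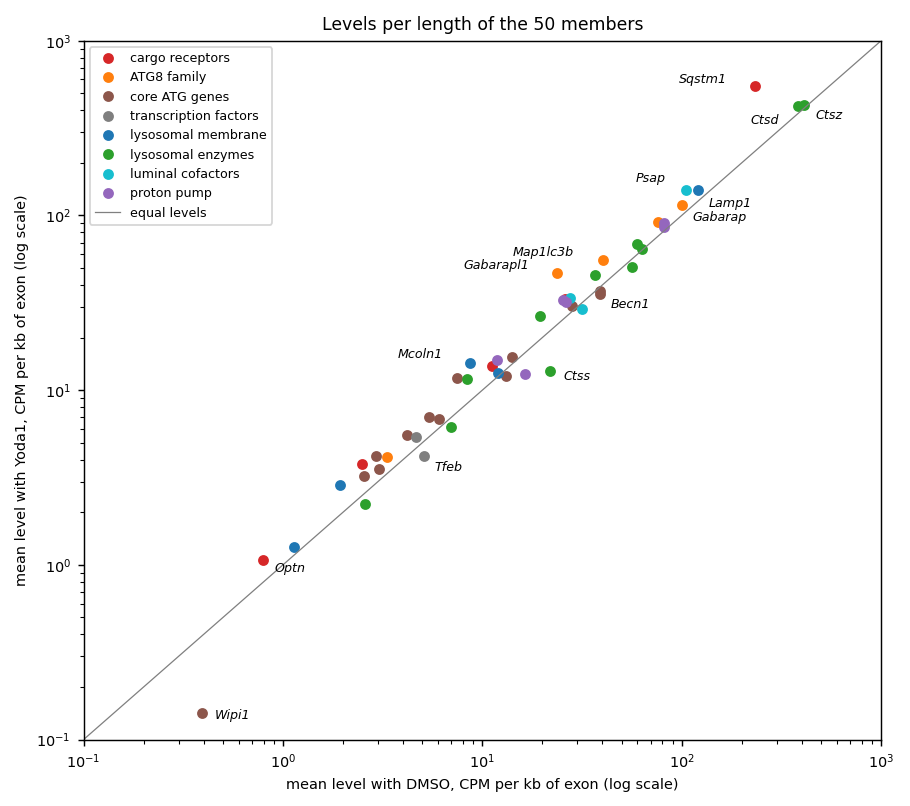
Mean level of each of the 50 genes with DMSO (horizontal axis) and with Yoda1 (vertical axis), in CPM per kilobase of annotated exon on log scales, coloured by role; the line marks equal levels. Sqstm1 stands farthest above the line among the abundant genes, at 232 and 549, whereas Ctsz, at 412 and 431, and Ctsd, at 383 and 423, lie close to it.

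The other genes of the pathway were read from a list of 102, of which 101 were analysed here and 99 could be tested. The counts were 1 called higher and 1 lower by edgeR (0.57% and 0.923% of all tested genes), with 19 and 7 at an unadjusted p under 0.05 (7.39% and 7.11%). By DESeq2 10 were called higher and 4 lower (3.03% and 3.53% of all genes to which it gave an adjusted p). Changes were positive for 75 and negative for 24, with a median of 0.17. The gene called lower was Bnip3, a mitochondrial receptor for mitophagy that is also a classic target of hypoxia signalling. It was at 150, 170 and 157 CPM with DMSO and 66.1, 59.9 and 93.0 CPM with Yoda1, without overlap, a log2 change of -1.13 (SE 0.17, edgeR adjusted p = 0.021). Left out in turn, the libraries without which this call was lost were DMSO 1, DMSO 2, DMSO 3, Yoda1 4 and Yoda1 5, with an adjusted p of up to 0.129. The call was also lost with the suffix as a term and with shared label numbers summed.

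By role, 6 of 7 further cargo receptors had positive changes (median 0.29), Bnip3 being the exception. All 12 genes of fusion with the lysosome had positive changes (median 0.28), and the one with the smallest p, Vps18, a subunit of the tethering complex, was at 32.8 ± 2.23 and 52.9 ± 8.56 CPM. Of 20 further core ATG genes 16 were positive (median 0.27), led by Atg101, a partner of ULK1, at 93.2 ± 4.52 and 143 ± 25.6 CPM. In 7 of these 20, Atg101 among them, every Yoda1 library was above every DMSO library, and in 0 every one was below. Over all tested genes these shares were 10.6% and 12.0%. Of 13 further proton pump genes 12 were positive (median 0.15), with Atp6v0b at 214 ± 13.7 and 306 ± 60.7 CPM. Of 13 further membrane genes 11 were positive (median 0.20), with Laptm4a at 108 ± 9.47 and 129.8 ± 21.1 CPM. The 31 further lysosomal enzymes were split, with 16 positive and 15 negative and a median of 0.01, near that of all tested genes. Of 2 further luminal cofactors 1 was positive and 1 negative. Gm2a, the cofactor of ganglioside breakdown, was at 1254 ± 29.1 and 1017 ± 50.5 CPM (log2 change -0.30, SE 0.07). The main edgeR fit did not call it (adjusted p = 0.0789), whereas limma voom and DESeq2 called it lower. It was also called lower by edgeR with upper-quartile factors (adjusted p = 0.045) and with the filter of 10 CPM in 3 libraries (adjusted p = 0.0324). Mitf, the related transcription factor gene, stayed between 0.0597 and 2.90 CPM.

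**Figure D4:**
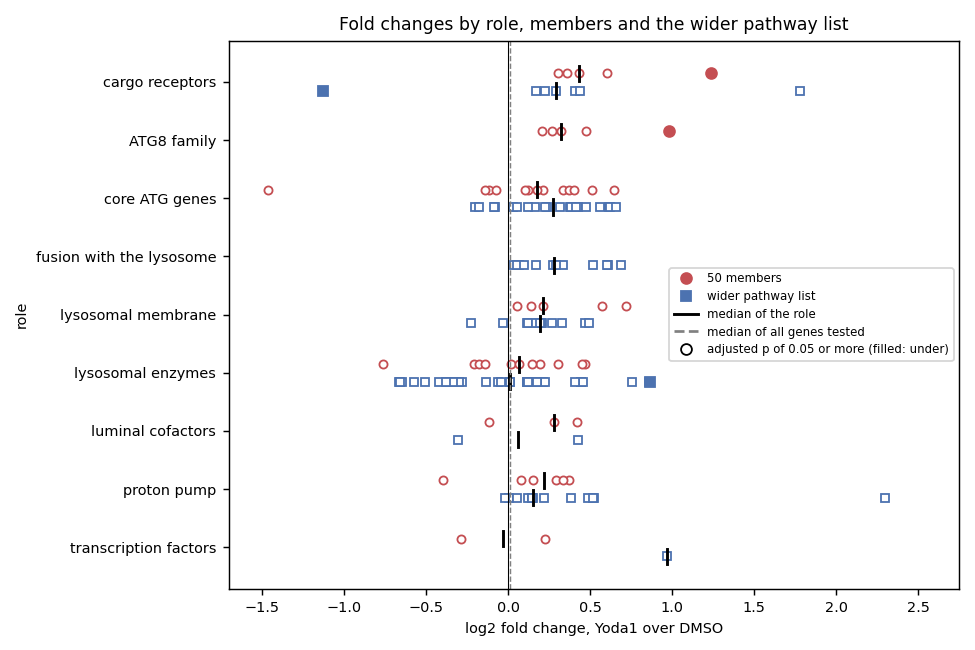
Log2 fold change of Yoda1 over DMSO (horizontal axis) for the 50 members (circles) and 99 tested genes of the wider list (squares), by role; filled points were called by edgeR, black ticks are medians and the dashed line is the median of all tested genes, 0.01. Cargo receptors (0.43) and the ATG8 family (0.32) have the highest member medians, and lysosomal enzymes lie on both sides of 0 in both lists. Those highest medians are the values of Optn and Map1lc3a, both of low level with overlapping groups. Their order depends on the libraries: without DMSO 2 the lysosomal membrane leads at 0.51. Without DMSO 3 the ATG8 family is at 0.23, below the core ATG genes at 0.27.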

How the data were processed

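The authors deposited 1 table of expected counts (estimated counts, often not whole) with genes as columns. The submitters' processing notes name mm10 as the build. The aligner, counting method and strand setting were not given in the sources used here. Counts were rounded to whole numbers. edgeR 4.0.16 in R 4.3.3 was run on all genes with TMM factors, the quasi-likelihood test with no covariate, and Benjamini-Hochberg adjustment at 0.05. Genes were filtered by filterByExpr with a minimum of 10 counts and a total of 15. The test was tested on simulated data. Total counts of 14214047 to 31627493 allow up to 0.0949 to 0.211 CPM at a count of 0 (3 counts, counting error only). Levels per length used the union of GENCODE M21 exons. Alternatives were RLE and upper-quartile factors, DESeq2 1.42.0, limma 3.58.1 voom, no filter, 10 CPM in 3 libraries, the label suffix as a term, summed libraries with a shared label number (DMSO 2 with 3, Yoda1 4 with 5), and each library left out in turn. The lone DMSO 1 control was added after seeing the data. The first 2 DMSO libraries have the label suffix 0, which no Yoda1 library has; the rest have 45 to 48. Members and lists were chosen with earlier results of these data known. Members named with every value had an unadjusted p under 0.05; each role also names its highest level per length and smallest p, with Tfeb, Tfe3, Lamp1, Map1lc3b and Becn1 throughout. Other members were named to account for all 50; Nbr1 and Ctsd were given by library after their values were seen. From the wider list, called genes or the smallest p in a role were named, except 1 gene that is not reported here.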

Additional observations from a re-analysis of the deposited data

How the results depend on the processing

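The median log2 change of the members lay between 0.16 and 0.25 in the 15 alternatives. Members called higher numbered 8 in DESeq2, 4 with the filter of 10 CPM in 3 libraries, 1 without a filter, 1 with the label suffix as a term, 0 with shared label numbers summed, 0 with DMSO 1 as the lone control, and 1 to 1 with each library left out in turn, each time Sqstm1. Over all genes, the numbers higher and lower were 428 and 498 in DESeq2, 158 and 290 with the filter of 10 CPM, 50 and 83 without a filter, 2 and 1 with the suffix as a term, 1 and 0 with shared numbers summed, 0 and 0 with DMSO 1 alone, and 4 to 74 and 5 to 146 with each library left out. Members called lower numbered 1 in DESeq2. Of the wider list, the numbers higher and lower were 10 and 4 in DESeq2, 2 and 2 with the filter of 10 CPM, 0 and 0 with the suffix as a term, 0 and 0 with shared numbers summed, and 0 and 0 with DMSO 1 alone; with each library left out, 0 to 2 were higher and 0 to 1 lower. Lower genes there also numbered 2 with upper-quartile factors and 2 in limma voom. Fits with summed or left-out libraries rest on fewer samples; the cause of the other shifts was not tested. Both within-library ratios kept their direction. For single named genes, 403 values kept their side of the threshold, 27 lost it and 19 gained it. No paired analysis was made because the labels do not pair any DMSO library with a Yoda1 library. Members with a mean under 5 CPM in both groups (3 of 50) had few reads, so small changes there could be missed. How small a change could be detected was not tested for any member.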
